A study of Mus musculus with 6 samples.

Results

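The keratin genes of cultured mouse mammary luminal cells were followed across 6 RNA-seq libraries. Members were all rows of the deposited table whose symbol is Krt followed by a digit, which gave 32 of 19739 rows. They were classed by number as type II (Krt1 to Krt8 and Krt71 to Krt90, 18 rows) or type I (13 rows). The remaining row, Krt8-ps, is a processed pseudogene of Krt8. The cells were primary wild-type (WT) mammary epithelial cells, sorted for luminal cells on a flow cytometer. Their DMEM/F12 medium held 5% FBS, 10 ng/ml EGF, 20 ng/ml FGF2, 4 µg/ml heparin and 5 µM Y-27632, which inhibits ROCK. All were held without serum for 12 hours. The control group (3 libraries) then had serum-free medium with 0 µg/ml EFNA3 and the EFNA3 group (3 libraries) had 1 µg/ml EFNA3 protein, for 24 hours. EFNA3 is ephrin-A3, a ligand of Eph receptors. Whether the replicates are separate animals or cultures is not said in the labels. The p-values therefore measure only how far these samples spread, and that spread may be technical.

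Keratins are the intermediate filament proteins of epithelial cells. A filament is built from pairs of 1 type I (acidic) and 1 type II (basic) keratin, so that cells make the types together. In the mammary duct KRT8 and KRT18 mark the inner luminal cells and KRT5 and KRT14 the outer basal cells, and luminal cells in culture can carry both sets. Other keratins belong to the upper layers of skin and mucosa, to wounded skin or to hair.

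The deposited values are log2 values on 1 common distribution with a median of 8.10, and depth is unknown. In effect each library's values are set by rank. Transcript length moved with the comparison in EFNA3 replicate 1: its median deviation from the control mean was 0.41 over the shortest of 8 length classes of all tested genes (up to 1004 bases) and -0.41 over the longest (from 5792 bases), against 0.09 and -0.07 in EFNA3 replicate 2 and 0.07 and -0.04 in EFNA3 replicate 3. Values without that library are given below for the keratins and other genes that it moved by more than 1.5 times. Of the luminal marker genes other than keratins, 14 of 14 stood above the table median in controls. Of 9 basal and myoepithelial markers other than keratins, 4 did, namely Trp63 at 11.79 ± 0.05 (SD, n = 3), Itgb4, Oxtr and the contractile gene Mylk at 9.38 ± 0.10. Of the other contractile genes, Acta2 stood at 7.77 ± 0.11 and Tagln at 5.20 ± 0.11, and Myh11, Cnn1 and Actg2 were below 3.32, the level for testing. Mylk was lower with EFNA3, by a difference of -0.45 (SE 0.19, limma adjusted p = 0.55), or -0.21 (SE 0.09) without EFNA3 replicate 1. Acta2 differed by 0.07 (SE 0.12) and Tagln by -0.53 (SE 0.30), or by 0.02 and -0.51 without EFNA3 replicate 1. The means of Myh11, Cnn1 and Actg2, under the level for testing, differed by -1.43, -1.28 and -0.25. Of 9 tested basal and myoepithelial markers, keratins included, 4 were higher and 5 lower with EFNA3. Only 1 of 6 fibroblast markers, Pdgfra, 1 of 4 endothelial markers and 0 of 3 immune markers stood above the median. The log2 sum of the basal markers other than keratins ran from 14.63 to 14.71 in controls. In EFNA3 replicates 1, 2 and 3 it was 14.30, 14.65 and 14.57. That of the luminal markers other than keratins ran from 15.89 to 15.95 in controls. It was 16.10, 15.97 and 15.93 in those EFNA3 libraries. These sums are linear, so abundant members such as Epcam (14.57 in controls) weigh most. Of 18 luminal markers, keratins included, 13 were higher and 5 lower with EFNA3, or 9 and 9 without EFNA3 replicate 1. The part of these markers in the keratin differences was not tested. In a bulk sample, fewer cells of a type and less RNA per cell cannot be told apart.

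The sequences of the keratin rows bear on how far their values can be told apart. Krt8-ps lies on chromosome 7, away from Krt8 on chromosome 15. Over 941 aligned bases the GENCODE M21 transcripts of Krt8 and Krt8-ps were 98.6% identical, with 13 differing bases and a longest identical run of 299 bases. The stretch of 90 bases below is the first ungapped coding stretch with at least 3 differing bases. It was picked for its differences, so it is less alike than the alignment as a whole. It runs from base 109 to base 198 of the Krt8 coding sequence and from base 109 to base 198 of the Krt8-ps transcript. Capitals mark the 3 bases that differ.
Krt8: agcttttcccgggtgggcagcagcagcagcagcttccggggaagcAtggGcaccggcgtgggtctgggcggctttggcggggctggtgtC
Krt8-ps: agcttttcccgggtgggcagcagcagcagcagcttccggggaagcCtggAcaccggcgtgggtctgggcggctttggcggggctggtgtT

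Of the 896 windows of 50 bases in the Krt8-ps transcript, 57.4% occur without a difference in Krt8, and 26.9% of the Krt8 windows occur in Krt8-ps. Reads there fit both rows, and the sources used here do not say how the authors' counting divided them. The Krt8-ps value is therefore uncertain. The same holds in part for Krt6a and Krt6b (93.4% identical over 2223 aligned bases), 43.6% of whose windows in Krt6a occur in Krt6b. For Krt16, 37.6% of windows occur in other genes. Of its windows 25.2% occur in Gm11597, which has no row here, and 12.4% in Krt14, which was far more abundant. For Krt27, 11.1% of windows occur in Krt25, which also has no row. Krt87 and Krt83, hair keratin rows, shared 36.9% and 23.2% of their windows with other genes. No window of Krt19, Krt7, Krt10, Krt79, Krt75, Krt23 or Krt9 occurred in a transcript of another gene.

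Keratin levels in control libraries spanned 14.35 on the log2 scale. As deposited, 5 rows had a control mean of at least 13, 11 rows one of at least 10, and 12 of 32 rows stood above the table median. The basal keratin Krt14 was the highest, followed by its partner Krt5 and by the simple epithelial keratins Krt19, Krt8 and Krt18. At the low end 12 rows had a control mean below 5, most of them keratins of hair or of the upper layers of skin and mucosa. The plot of levels shows this order for all rows.

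**Figure D1:**
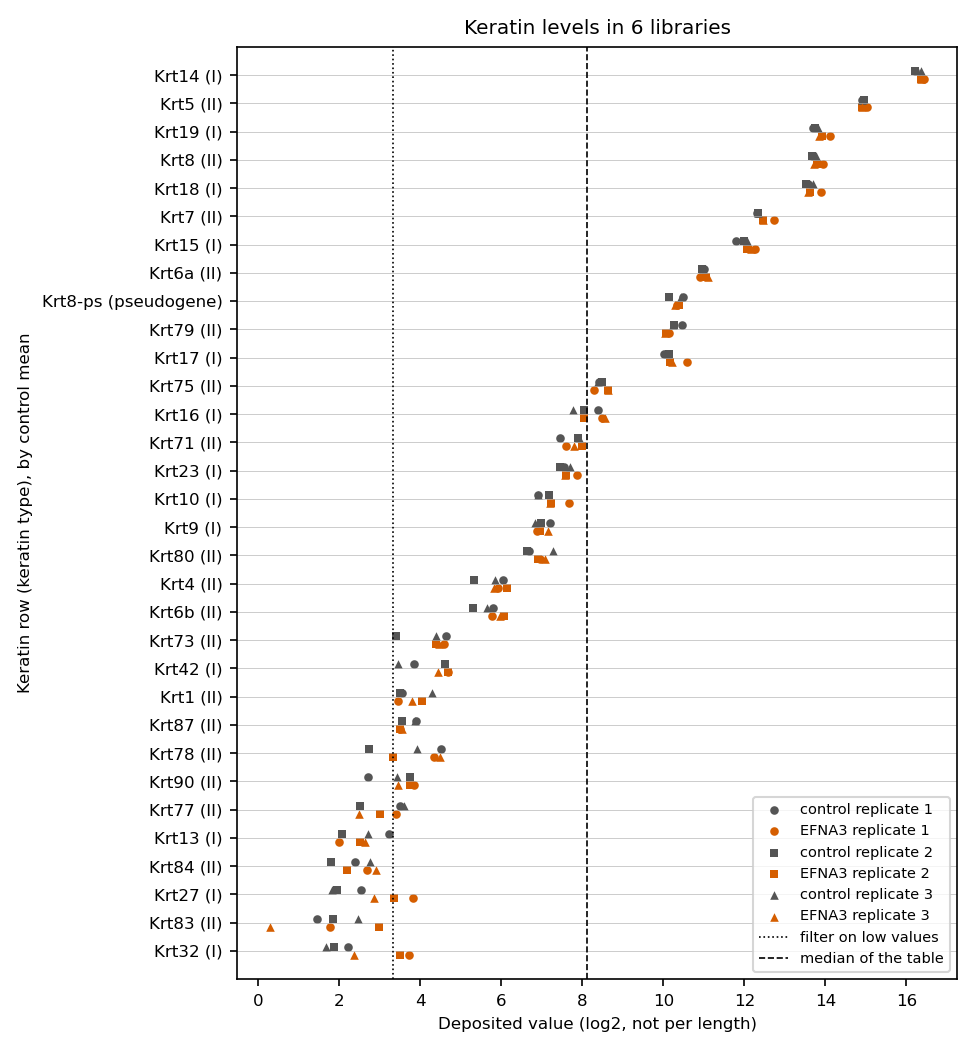
Deposited log2 values (x axis, not per length) of the 32 keratin rows in 3 control libraries (grey) and 3 EFNA3 libraries (orange), ordered by control mean, with the level for testing (dotted line) and the table median (dashed line). Control means run from 16.26 for Krt14 to 1.91 for Krt32, and the groups do not overlap in 6 tested and 2 untested rows.

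Krt14 read 16.21, 16.21 and 16.36 in control replicates 1, 2 and 3 and 16.44, 16.36 and 16.36 in EFNA3 replicates 1, 2 and 3 (log2). These are the values of ranks 10, 10 and 7 among all rows in the controls and of ranks 6, 7 and 7 with EFNA3. The groups met, since control replicate 3 and 2 EFNA3 libraries held the same rank and value. Krt5, its type II partner, read 14.90, 14.94 and 14.90 in controls and 15.03, 14.90 and 14.90 with EFNA3. Rank 37 alone gave 4 of these 6 values. At these ranks the next value lay from 0.03 to 0.11 away for Krt14, except for a step of 0.57 up from rank 6. Krt14 held no rank above that step. For Krt5 the next value lay up to 0.04 away. The differences between these libraries thus reflect a change of rank by a few places. The plot of ranks shows both genes.

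**Figure D2:**
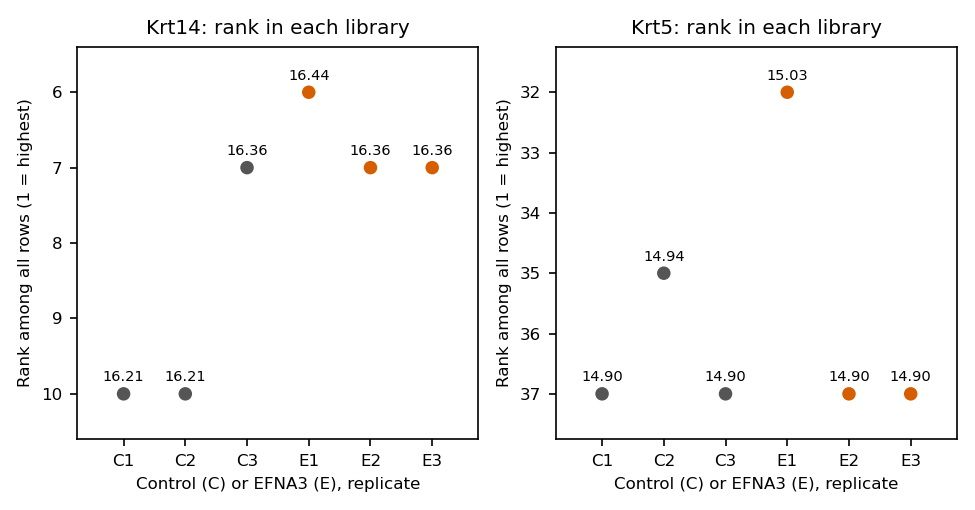
Rank among all rows (y axis, 1 is the highest, axis not from 0) of Krt14 (left) and Krt5 (right) in control libraries C1 to C3 and EFNA3 libraries E1 to E3, with the deposited log2 value beside each point. Krt14 held ranks 6 to 10 and Krt5 ranks 32 to 37, and several libraries share a rank and so a value.

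Krt19, a type I keratin of simple epithelia, read 13.69, 13.74 and 13.82 in controls and 14.13, 13.91 and 13.83 with EFNA3. All EFNA3 libraries lay above all controls, by 0.01 at the closest. Krt8 read 13.67, 13.67 and 13.78 in controls and 13.94, 13.79 and 13.73 with EFNA3, and its groups overlapped. Krt18, which pairs with Krt8, read 13.57, 13.52 and 13.70 in controls and 13.89, 13.61 and 13.56 with EFNA3, also with overlap. Both stood highest in EFNA3 replicate 1.

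Between genes, levels are compared per kb of the longest coding transcript in GENCODE M21. On that scale the control means were 15.50 for Krt14, 13.78 for Krt5, 13.09 for Krt19, 13.08 for Krt18, 12.73 for Krt8 and 11.19 for Krt15 (log2). Krt19 and Krt18 differed by less than their SDs of 0.07 and 0.09, while the other neighbours among these 6 differed by more than their SDs. Scaled by coding length the first 5 kept this order. Krt7 was in place 8 of all rows per kb of transcript, where Krt8-ps was in place 7. Krt7 was in place 6 per kb of coding sequence, a ranking without Krt8-ps, which has none. The annotated transcript of Krt7 has 4094 bases and its coding sequence 1371.

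Type I keratins made up most of the keratin RNA. Summed over the 31 protein-coding rows per kb of transcript, type I held 73.7% ± 0.91 (SD, n = 3) in controls and 74.7% ± 0.065 with EFNA3. Krt14 alone held 50.8% ± 0.76 in controls and 51.1% ± 1.17 with EFNA3, and Krt5 held 15.5% ± 0.79 and 14.5% ± 0.10. The groups overlapped in the type I share, with control replicate 3 at 74.72% and EFNA3 libraries from 74.61% to 74.73%. They also overlapped in the Krt5 share, with control replicate 3 at 14.56% and EFNA3 libraries from 14.45% to 14.65%. The simple epithelial keratins Krt7, Krt8, Krt18, Krt19 and Krt23 together held 28.1% ± 0.16 in controls and 28.6% ± 1.36 with EFNA3. That sum stood at 30.1% in EFNA3 replicate 1, against 28.4% and 27.4% in replicates 2 and 3. Differences in these shares are given as descriptions without a test. The plot of shares shows how alike the libraries were.

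**Figure D3:**
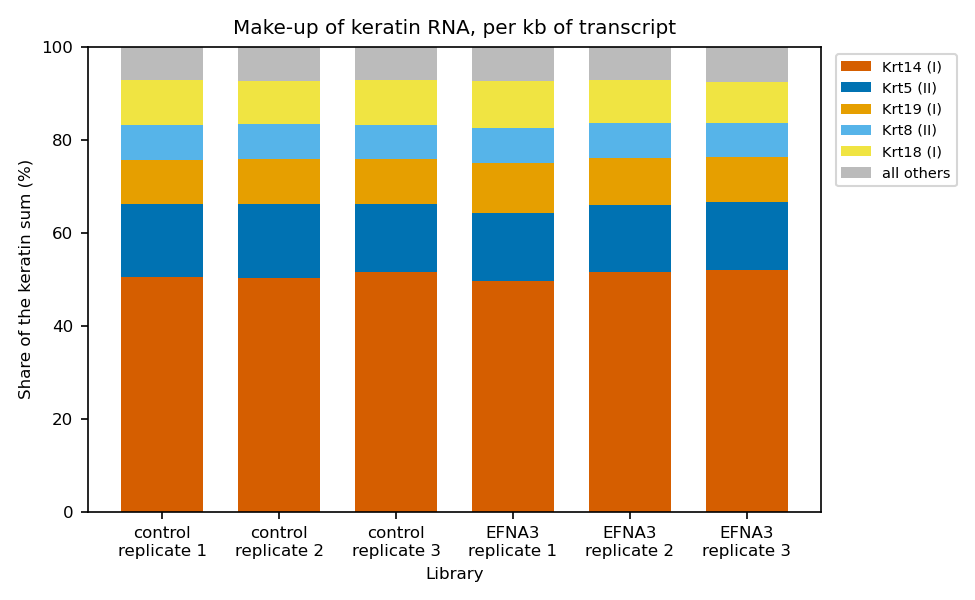
Share of the summed per-kb keratin level (y axis, percent) held by Krt14, Krt5, Krt19, Krt8, Krt18 and all other protein-coding keratins, as 1 stacked bar for each of 6 libraries. Krt14 holds between 49.7% and 52.0% in every library.

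Partner keratins were compared within each library. Per kb, Krt14 stood above Krt5 by 1.72 ± 0.10 in controls and 1.81 ± 0.02 with EFNA3 (log2, SD, n = 3). Krt18 stood above Krt8 by 0.34 ± 0.03 and 0.31 ± 0.07, the closest to equal of the pairs named here, and by 0.11 ± 0.03 and 0.08 ± 0.07 per kb of coding sequence. Krt19 stood above Krt7 by 2.80 ± 0.06 and 2.79 ± 0.03 per kb of transcript, and by 1.60 ± 0.06 and 1.59 ± 0.03 per kb of coding sequence. The wound keratins Krt16 and Krt6a were far from equal, with Krt16 at -2.37 ± 0.29 and -2.12 ± 0.32 relative to Krt6a. Krt17 stood above Krt6b by 5.04 ± 0.31 and 4.92 ± 0.37, and Krt10 above Krt1 by 3.46 ± 0.55 and 3.85 ± 0.55. In each of these 6 pairs the difference between the groups was smaller than the larger SD within a group. The mucosal pair of Krt13 and Krt4 went the other way, with Krt13 at -2.71 ± 0.24 relative to Krt4 in controls and -3.22 ± 0.38 with EFNA3, but Krt13 was under the level for testing.

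Krt8 and Krt18 are neighbouring protein-coding genes on chromosome 15 in the RefSeq annotation, on opposite strands. All other type I rows lay on chromosome 11, and all other type II rows on chromosome 15. The RefSeq promoter windows of this pair (GRCm38.p6, an earlier build than the mm39 of the deposited table) are shown because the partners stood at almost the same level. Each runs from 250 bases before to 50 after the annotated start, 5′ to 3′ on the strand of the gene. The Krt8 window is chr15:102004293-102004592 on the minus strand, and the Krt18 window is chr15:102027966-102028265 on the plus strand. Capitals mark matches on either strand to any of TATAAA (the TATA box), TGANTCA (the AP-1 motif), GCCNNNGGC (an AP-2 motif) and GGGCGG (the Sp1 motif).
Krt8: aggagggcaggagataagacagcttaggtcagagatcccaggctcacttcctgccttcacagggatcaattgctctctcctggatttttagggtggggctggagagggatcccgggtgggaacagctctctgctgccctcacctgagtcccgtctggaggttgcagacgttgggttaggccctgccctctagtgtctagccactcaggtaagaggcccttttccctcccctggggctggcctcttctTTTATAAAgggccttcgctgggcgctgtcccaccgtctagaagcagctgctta
Krt18: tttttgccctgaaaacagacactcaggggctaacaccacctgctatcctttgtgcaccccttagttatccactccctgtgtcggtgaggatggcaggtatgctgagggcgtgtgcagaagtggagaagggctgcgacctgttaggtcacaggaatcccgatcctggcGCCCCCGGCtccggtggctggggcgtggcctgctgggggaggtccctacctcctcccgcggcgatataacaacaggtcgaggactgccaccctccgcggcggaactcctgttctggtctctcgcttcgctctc

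The Krt8 window held TATAAA on both strands in overlapping matches of 6 bases that run across the annotated start, with first bases 1 and 3 bases before it. The Krt18 window held GCCNNNGGC, a motif of AP-2 factors, with its first base 83 bases before the start. TATAAA is found in 13.6% and GCCNNNGGC in 16.6% of all 32851 RefSeq windows of 300 bases. Of 32 keratin rows 20 had a window, 21 windows in all, of which 8 held TATAAA, 5 the motif GCCNNNGGC, 2 the motif GGGCGG and 2 the motif TGANTCA. All windows held GGGCGG in 35.7% and TGANTCA in 7.81% of cases. TATAAA on the strand of the gene, starting 35 to 20 bases before the start, was in 3 of 21 keratin windows. It was there in 1.84% of all windows. The Krt8 window held none at that position. A match describes letters in the window and not a bound site.

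In the comparison of EFNA3 with control medium, no keratin passed the limma test over 16394 tested genes. Genes entered the test where 3 or more libraries reached 3.32 (log2 of 10), as 27 of 32 keratin rows did. Among all tested genes 0 (0%) had an adjusted p below 0.05 and 6.73% an unadjusted p below 0.05. Of keratins, 4 of 27 had an unadjusted p below 0.05: Krt79, Krt7, Krt15 and Krt19, each with an adjusted p of 0.55 (limma, Benjamini-Hochberg). Of these 3 were higher and 1 lower, against 3.87% and 2.86% of all tested genes. Which keratins these were moved with the libraries used. Without control replicate 1 none of the 4 had an unadjusted limma p below 0.05 and Krt16 did. Without control replicate 3 only Krt79 and Krt15 did, and with the housekeeping centring described below only Krt79. The groups did not overlap for 6 of 27 keratins, 4 higher and 2 lower with EFNA3, against 16.0% of all tested genes (8.53% higher and 7.45% lower).

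Most tested keratins had a higher mean with EFNA3: 22 of 27, against 50.8% of all tested genes, with a median difference of 0.12 beside 0.00 for all. Each library was also centred on 10 housekeeping genes instead, which moved the median of all tested genes to -0.14. With this centring 12 of 27 were higher and the keratin median was -0.03. The centring moves all genes of a library by the same amount, so the keratin median stayed above that of all tested genes. How many of all tested genes were higher with the centring was not counted. The largest offset the centring removed was 0.245, from EFNA3 replicate 1, the library that departs by transcript length. Offsets of the other libraries ran from -0.11 (control replicate 2) to 0.006 (EFNA3 replicate 3). How far the centring acts through EFNA3 replicate 1 alone was not tested. With a correction that took trends with transcript length and GC content out of each library, 18 of 27 were higher (median 0.09), and without EFNA3 replicate 1 it was 21 of 27 (median 0.13). The median was 0.05 without control replicate 2 and 0.17 without control replicate 3. EFNA3 replicate 1 was the highest of the 3 EFNA3 libraries for 15 of 27 keratins. The 10 tested type I keratins, with a median transcript of 1570 bases, had a median difference of 0.21, and the 16 type II keratins, at 2278 bases, one of 0.10. Without EFNA3 replicate 1 these were 0.11 and 0.13, so the order of the types turned, and with the housekeeping centring they were 0.06 and -0.05. The plot of differences gives each keratin.

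**Figure D4:**
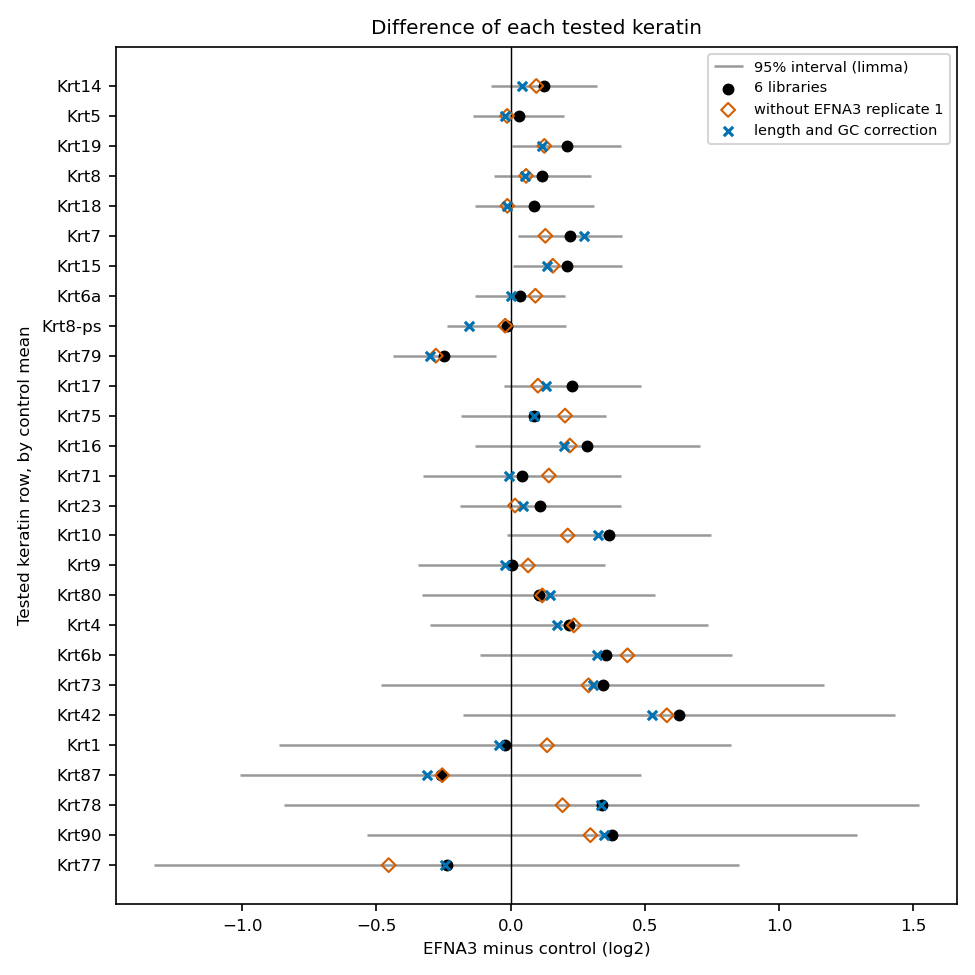
EFNA3 minus control (x axis, log2) for the 27 tested keratin rows, from all 6 libraries (black points) with 95% limma intervals (grey lines), the difference without EFNA3 replicate 1 (open diamonds) and after the length and GC correction (crosses). Of the intervals, only those of Krt19, Krt7, Krt15 and Krt79 lie wholly on 1 side of no difference.

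Among keratins of simple epithelia, 5 of 5 had a higher mean with EFNA3 (median 0.12), or 2 of 5 with the housekeeping centring (median -0.03). Krt7, the type II keratin of ducts and glands, read 12.31, 12.33 and 12.34 in controls and 12.73, 12.47 and 12.45 with EFNA3. The controls lay within 0.03 of each other, and all EFNA3 libraries stood above them. The difference was 0.22 (SE 0.09, 95% interval 0.03 to 0.41, limma adjusted p = 0.55). Without EFNA3 replicate 1 it was 0.13 (SE 0.05), a change by more than 1.5 times, and all libraries of the EFNA3 group still lay above the controls. Krt19, whose values are given above, differed by 0.21 (SE 0.09, interval 0.01 to 0.41, limma adjusted p = 0.55), or by 0.13 (SE 0.05) without EFNA3 replicate 1. Krt8 differed by 0.12 (SE 0.08, interval -0.06 to 0.30) and Krt18 by 0.09 (SE 0.10, interval -0.13 to 0.31). Krt23, at 7.57 ± 0.12 in controls, differed by 0.11 (SE 0.13). Without EFNA3 replicate 1 Krt8 stood at 0.06, Krt18 at -0.01 and Krt23 at 0.02. Krt7, Krt8, Krt18 and Krt19 were each highest in EFNA3 replicate 1, the library that departs by transcript length. With the length and GC correction they stood at 0.27, 0.05, -0.01 and 0.12.

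Of keratins of the basal layer, 3 of 3 had a higher mean with EFNA3 (median 0.12), or 1 of 3 with the housekeeping centring (median -0.02). Krt14 differed by 0.12 (SE 0.09, interval -0.07 to 0.32) and Krt5 by 0.03 (SE 0.07, interval -0.14 to 0.20). Without EFNA3 replicate 1 they stood at 0.10 and -0.01. Krt15, a type I keratin of basal and stem-like epithelial cells, read 11.80, 11.99 and 12.07 in controls and 12.27, 12.07 and 12.16 with EFNA3. Its groups overlapped by less than 0.01, between control replicate 3 and EFNA3 replicate 2. It differed by 0.21 (SE 0.09, interval 0.01 to 0.41, limma adjusted p = 0.55), or by 0.16 (SE 0.07) without EFNA3 replicate 1 and by 0.13 without control replicate 1. With the housekeeping centring Krt14, Krt5 and Krt8 were at -0.02, -0.12 and -0.03, below no difference, and Krt15 at 0.07.

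Of keratins of wounding and of the hair companion layer, 5 of 5 had a higher mean with EFNA3 (median 0.23), or 3 of 5 with the housekeeping centring (median 0.09). Krt6a, induced in wounded epidermis, read 11.01, 10.95 and 10.99 in controls and 10.91, 11.06 and 11.09 with EFNA3, a difference of 0.04 (SE 0.07, interval -0.13 to 0.20), or 0.09 without EFNA3 replicate 1. Its EFNA3 values lay on both sides of the controls. Krt17, a type I keratin of appendages and activated keratinocytes, read 10.02, 10.13 and 10.12 in controls and 10.58, 10.16 and 10.22 with EFNA3. The groups did not overlap, by 0.03 at the closest. It differed by 0.23 (SE 0.11, interval -0.02 to 0.48, limma adjusted p = 0.55), or by 0.10 (SE 0.07) without EFNA3 replicate 1. Krt75, of the companion layer of hair, read 8.41, 8.48 and 8.39 in controls and 8.28, 8.62 and 8.63 with EFNA3. Here EFNA3 replicate 1 was the lowest of all libraries, and without it the difference of 0.09 (SE 0.12) became 0.20 (SE 0.10), while it was 0.03 without either of the other EFNA3 libraries. Krt16 differed by 0.29 (SE 0.19) and Krt6b by 0.35 (SE 0.21), both with overlap between groups and with sequence that near copies share. Krt16 was at 0.14 or 0.44 when control replicate 3 or 1 was left out, and at 0.19 or 0.45 when EFNA3 replicate 3 or 2 was. Krt6b was at 0.21 without control replicate 2.

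Of 8 tested suprabasal keratins of skin and mucosa, 5 had a higher and 3 a lower mean with EFNA3 (median 0.05), or 3 and 5 with the housekeeping centring (median -0.09). Krt79, a type II keratin known from sebaceous ducts and the upper hair follicle, stood lower with EFNA3. It read 10.47, 10.27 and 10.25 in controls and 10.14, 10.05 and 10.04 with EFNA3, so that no EFNA3 library reached the lowest control. The difference was -0.25 (SE 0.09, interval -0.44 to -0.05, limma adjusted p = 0.55), and its unadjusted p was the smallest of the tested keratins. It was -0.28 (SE 0.08) without EFNA3 replicate 1, -0.30 with the length and GC correction, -0.39 with the housekeeping centring and -0.18 without control replicate 1. Its share of the per-kb keratin sum was 0.676% ± 0.081 in controls and 0.523% ± 0.0096 with EFNA3 (SD, n = 3).

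Krt10, the main type I keratin of suprabasal epidermis, read 6.91, 7.18 and 6.91 in controls and 7.68, 7.22 and 7.21 with EFNA3. The groups did not overlap, with control replicate 2 within 0.03 of the nearest EFNA3 library. It differed by 0.37 (SE 0.17, interval -0.01 to 0.75, limma adjusted p = 0.55), or by 0.21 (SE 0.16) without EFNA3 replicate 1. Its usual partner Krt1 stood near the level for testing, at 3.77 ± 0.45 in controls, and differed by -0.02 (SE 0.37), or by 0.14 without EFNA3 replicate 1. The other tested rows of this group, Krt4, Krt9, Krt77, Krt78 and Krt80, had differences from -0.24 to 0.34 with overlap between the groups. Without EFNA3 replicate 1 Krt77 was at -0.45, Krt78 at 0.19 and Krt9 at 0.06. Krt13, the partner of Krt4 in mucosa, was under the level for testing, at 2.66 ± 0.59 in controls and 2.37 ± 0.35 with EFNA3.

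The last rows were hair keratins, keratins of no fixed group and the pseudogene. Krt71, of the inner root sheath of hair, stood well above the other hair keratin rows, at 7.75 ± 0.26 in controls, and differed by 0.04 (SE 0.16), or by -0.11 without control replicate 1 and 0.14 without EFNA3 replicate 1. Krt73, a related row, differed by 0.34 (SE 0.36), or by -0.02 without control replicate 2 and 0.59 without control replicate 1. Krt42 read 3.85, 4.62 and 3.43 in controls and 4.68, 4.67 and 4.43 with EFNA3. It had the largest difference of the tested keratins, 0.63 (SE 0.36, interval -0.18 to 1.43), with overlap between control replicate 2 and EFNA3 replicate 3. It was 0.36 without control replicate 3 and 0.95 without control replicate 2. Krt90 differed by 0.38 (SE 0.40), or by 0.08 without control replicate 1 and 0.61 without control replicate 2. Krt87, a hair shaft row, read 3.90, 3.55 and 3.86 in controls and 3.50, 3.49 and 3.54 with EFNA3, a difference of -0.26 (SE 0.33), with groups that were 0.01 apart. Krt8-ps read 10.47, 10.14 and 10.43 in controls and 10.34, 10.38 and 10.28 with EFNA3, a difference of -0.02 (SE 0.10).

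Among the 5 rows under the level for testing, the groups did not overlap for Krt27 and Krt32, against 10.1% of all such rows (4.60% in the higher direction, which both rows took). Krt27, of the inner root sheath, read 2.53, 1.93 and 1.82 in controls and 3.81, 3.34 and 2.86 with EFNA3. Krt32, of the hair cuticle, read 2.21, 1.86 and 1.68 in controls and 3.72, 3.50 and 2.36 with EFNA3. Their means were higher with EFNA3 by 1.24 and 1.28. With no filter on low values limma gave each an adjusted p of 0.575 and 95% intervals of 0.20 to 2.28 and 0.13 to 2.43. The remaining rows, Krt13, Krt84 and Krt83, differed by -0.29, 0.29 and -0.25 with overlap. The log2 sum of 5 hair follicle and skin markers other than keratins ran from 11.36 to 11.44 in controls. It was 11.13, 11.36 and 11.42 in EFNA3 replicates 1, 2 and 3. Lgr5, at 11.21 in controls, leads this linear sum, with Tchh next at 7.85. Lgr5, Tchh, Ivl, Sox21 and Lor differed by -0.11, 0.02, -0.15, 0.38 and 0.38. The part of these markers in the values of these keratin rows was not tested. How many reads lie behind keratin values this low is unknown, and so is their counting error.

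The plot by transcript length sets the keratins against all genes. Tested keratin transcripts ran from 945 to 4094 bases with a median of 2168, against 2801 for all tested genes. In the length class from 1621 to 2200 bases, the median deviation of all tested genes from the control mean was 0.20 in EFNA3 replicate 1, 0.04 in replicate 2 and 0.02 in replicate 3. The keratin medians in these libraries were 0.19, 0.09 and 0.11. The keratin median thus lay near that of genes of like length in EFNA3 replicate 1 and above it in EFNA3 replicates 2 and 3. In control replicates 1, 2 and 3 the keratin medians were -0.01, -0.04 and 0.08. In control replicate 3, itself part of the control mean, 20 of 27 keratins lay above that mean, as in EFNA3 replicates 2 and 3. Deviations near this size thus also occurred in an untreated library.

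**Figure D5:**
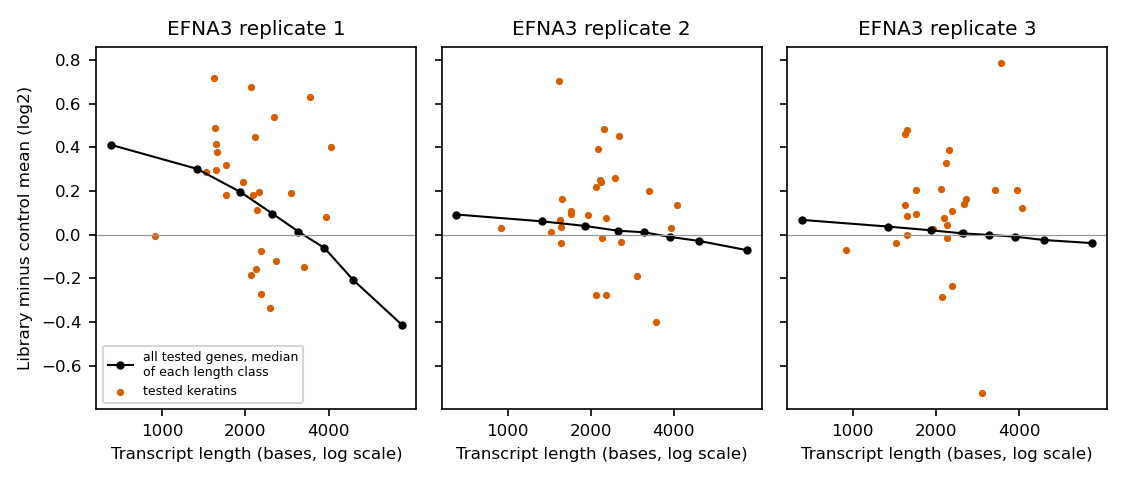
Deviation of each EFNA3 library from the control mean (y axis, log2) against transcript length (x axis, bases, log scale) for the 27 tested keratins (orange points) and for the medians of 8 length classes of all tested genes (black line). The black line falls from 0.41 to -0.41 in replicate 1 and stays within 0.1 of no difference in replicates 2 and 3.

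Genes that work with keratins were listed as well, and none passed the limma test over all genes. Of 10 desmosome genes, which anchor keratin filaments at cell contacts, 4 were higher and 6 lower (median -0.07), and 9 were higher without EFNA3 replicate 1 (median 0.02). The desmosome gene Perp was higher by 0.23 (SE 0.08, limma adjusted p = 0.55) with no overlap between groups, or by 0.17 without EFNA3 replicate 1. Dsp, which links keratin to the desmosome, was at -0.21 (SE 0.17), and at 0.02 (SE 0.06) without EFNA3 replicate 1. Of 10 linker and hemidesmosome genes 9 were lower (median -0.17). With the length and GC correction 5 were lower (median -0.01), and without EFNA3 replicate 1 it was 7 (median -0.04). Among them Dst, a linker of keratin to hemidesmosomes, stood at -0.31 (SE 0.19), Col17a1, a hemidesmosome collagen, at -0.18 (SE 0.11), and the integrin gene Itga6 at -0.19 (SE 0.11). Without EFNA3 replicate 1 they were at -0.04, -0.05 and -0.05. The tetraspanin gene Cd151 was the 1 with a higher mean, by 0.16 (SE 0.08), or by 0.09 without EFNA3 replicate 1.

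Of 9 tested genes for other intermediate filaments, 3 were higher and 6 lower. Vim, the filament gene of mesenchymal cells, stood at 7.97 ± 0.09 in controls and 8.20 ± 0.26 with EFNA3, a difference of 0.23 (SE 0.14), or 0.09 (SE 0.12) without EFNA3 replicate 1. Synm differed by -0.32 (SE 0.17), or by -0.19 without EFNA3 replicate 1, and was lower in all EFNA3 libraries than in any control. Of 15 transcription factors of keratin genes, 9 were higher and 6 lower (median 0.01), or 2 and 13 with the housekeeping centring. Klf4, a factor of epithelial differentiation, was higher by 0.24 (SE 0.10, limma adjusted p = 0.55) with no overlap, or by 0.30 without EFNA3 replicate 1. The basal factor Trp63 differed by -0.05 (SE 0.06) and the luminal progenitor factor Elf5 by 0.00 (SE 0.07), or by -0.05 and -0.05 without EFNA3 replicate 1.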

How the data were processed

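Gene expression was measured by RNA-seq in 6 libraries, 3 per group, grouped by the sample titles. The kit selects mRNA and keeps strand, per the labels' protocols. Trim Galore, Subread, featureCounts and build mm39 are named, per the submitters' processing notes. The sources used here give no versions, annotation, strand setting or step to log2 values. The deposited table held 1 column of log2 values per library. The sorted columns differ by at most 0.00302, as quantile normalization by the authors would leave them, so depth and any shift of all genes cannot be seen. The members and lists were chosen with earlier results of these data known.

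Genes that reached 3.32 (log2 of 10) in 3 or more libraries were fitted with limma 3.58.1 (R 4.3.3), with a mean-variance trend and no pseudocount, two-sided, with Benjamini-Hochberg adjustment over 16394 genes at 0.05. With 3 libraries a group the smallest p of an exact permutation test is 0.1. Lengths and shared 50-base windows came from GENCODE M21, of an earlier build, matched by symbol for 97.4% of tested genes. No mm39 coordinates are given, and GRCm38.p6 coordinates only for the Krt8 and Krt18 promoter windows. The fit was tested on simulated noise with the spread of these libraries and 200 changed genes. It recovered 16.4% of changes of 0.5, 64.2% of changes of 1 and 89.8% of changes of 2 (log2). Of the tested keratins only Krt42 differed by 0.5 or more, so a lack of calls does not show a lack of change. All tested keratins were named. The 6 values were given for the 12 rows with the highest control mean, for those with no overlap between groups and for those with a difference of at least 0.5. Alternatives covered the pseudocount, filter, scaling, variance model, library weights, replicate blocks, length and GC, and leaving out each library. The replicate numbers of the titles were not found to pair the libraries.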

Additional observations from a re-analysis of the deposited data

How the results depend on the processing

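No keratin passed the limma threshold under any of the settings run, and 41 of 479 comparisons of a keratin's difference with its value in the report changed sign. The median keratin difference ran from 0.0524 to 0.174 when 1 library was left out. It was -0.0269 with housekeeping centring, beside -0.141 for all tested genes. With that centring Krt14 was at -0.0213, Krt5 at -0.116, Krt8 at -0.0269, Krt18 at -0.0576, Krt6a at -0.109, Krt75 at -0.0586, Krt71 at -0.103, Krt23 at -0.0349, Krt9 at -0.142 and Krt80 at -0.0399. With library weights Krt5 was at -0.00556 and Krt1 at 0.168. With the length and GC correction, with or without a replicate block by title number, Krt5 was at -0.0220, Krt18 at -0.0127, Krt71 at -0.00574 and Krt9 at -0.0201. The same correction without EFNA3 replicate 1, chosen after seeing the data, gave Krt5 -0.0200, Krt18 -0.0449, Krt23 -0.00305 and Krt1 0.137. The cause of these turns was not tested.

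Leaving out 1 library at a time moved Krt5 between -0.0133 and 0.0506, Krt18 between -0.0124 and 0.151, Krt8-ps between -0.118 and 0.0461, Krt71 between -0.106 and 0.142, Krt9 between -0.0835 and 0.102, and Krt80 between -0.0154 and 0.314. It moved Krt73 between -0.0245 and 0.589, Krt1 between -0.162 and 0.237, Krt78 between -0.157 and 0.734, and Krt77 between -0.586 and 0.00342. The direction of these 10 keratins turned with 1 library.

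The titles and the descriptions number the replicates differently. Libraries of the same title number did not deviate together (Pearson r across genes -0.105, 0.03 and -0.318). Pairs of unlike title numbers gave r from -0.169 to 0.299. With 3 libraries a group this cannot show whether libraries of the same number share an animal or culture. The replicate block by title number gave 0 calls of 16394 genes, 0 of them keratins, and 1046 genes at an unadjusted p below 0.05. The block by description number gave 71 calls, 0 of them keratins, and put Krt4 at -0.0743. Control replicate 2 and EFNA3 replicate 2 have description numbers that the other group lacks, so they do not enter that estimate. It rests on replicates 1 and 3 of each group alone, and its calls are not comparable with those of the other settings.

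The control share of type I in the keratin sum was 67.35% as deposited and 70.55% per coding length, that of Krt14 47.86% and 48.01%, and that of Krt5 and Krt14 together 66.69% and 63.78%, against 66.3% per kb of transcript. The coding length was chosen after seeing the data. Depth is unknown, so counting error of the low keratins cannot be given.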
